A study of Mus musculus with 2 samples.

Results

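Cytosolic ribosomal protein genes were compared between RNA from round chondrocytes and RNA from columnar and hypertrophic chondrocytes of the mouse growth plate. The genes were taken by name: a probe set counted when its single gene symbol was Rpl, Rps or Rplp with a number (with a, x or l endings), or Rpsa, and symbols of the -ps kind were left out. This rule gave 48 of 18193 named genes, with 104 of the 34945 probe sets that name 1 gene alone, and 26 genes belonged to the large and 22 to the small ribosomal subunit. In RefSeq (assembly GRCm38.p6) 83 protein-coding symbols follow the same pattern. Of these, 47 had a probe set of their own, 28 appeared only on probe sets that name several genes and were not used, and 8 were not measured here. The remaining member, Rps4l, is listed by RefSeq as a transcribed pseudogene.

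Each group was 1 Affymetrix Mouse Genome 430 2.0 array, and each array carried mixed RNA of 3 cartilage plate preparations. Both arrays came from wild-type C57BL/6J embryos at E17.5. One was labelled as enriched in round chondrocytes, the proliferating cells of the epiphyseal end, and the other as columnar and hypertrophic chondrocytes, the flattened dividing cells and the enlarged cells that follow them. No treatment or altered allele was given for either. There were thus no replicates, no test was possible, and differences below have no replicate error. The number of arrays limits their precision.

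Ribosomes are built from ribosomal RNA and about equal amounts of each ribosomal protein, so their genes are transcribed in nearly every cell and belong to its most abundant messenger RNAs. These messages typically begin with a terminal oligopyrimidine (TOP) tract, a run of C and T at the very start, through which TOR signalling and the RNA-binding protein LARP1 set how strongly they are translated. Their RNA level is therefore only part of what fixes ribosome production. Growth plate chondrocytes secrete large amounts of collagen and proteoglycan, and inherited defects of single ribosomal proteins can affect the skeleton.

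Windows of 30 bases around the annotated start (15 before and 15 from it on) are printed for some members. They cover members of the ribosomal stalk, a skeletal member and Rps25, whose single probe set differed between the arrays. The others are 3 pairs of related genes. Sequences and positions are from RefSeq (GRCm38.p6), read 5′ to 3′ on the strand of the gene, with the window nearest to the annotated end of the gene. Capitals mark the longest run of C and T in the window, which need not be the tract of the message.
Rplp0 (chr5:115559452-115559481, plus strand): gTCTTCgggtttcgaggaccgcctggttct
Rplp2 (chr7:141447636-141447665, plus strand): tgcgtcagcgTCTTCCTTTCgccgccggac
Rpl38 (chr11:114668565-114668594, plus strand): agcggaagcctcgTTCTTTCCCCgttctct
Rpl12 (chr2:32961697-32961726, plus strand): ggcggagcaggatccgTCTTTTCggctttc
Rps25 (chr9:44407699-44407728, plus strand): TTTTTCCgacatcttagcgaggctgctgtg
Rpl39 (chrX:37085208-37085237, minus strand): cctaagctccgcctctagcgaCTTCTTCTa
Rpl39l (chr16:10170213-10170242, plus strand): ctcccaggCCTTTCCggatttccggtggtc
Rps27 (chr3:90213634-90213663, minus strand): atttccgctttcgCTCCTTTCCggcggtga
Rps27l (chr9:66946071-66946100, plus strand): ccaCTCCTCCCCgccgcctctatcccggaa
Rpl22 (chr4:152324421-152324450, plus strand): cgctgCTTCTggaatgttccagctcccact
Rpl22l1 (chr3:28805493-28805522, plus strand): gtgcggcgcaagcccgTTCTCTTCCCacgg

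Of the 48 members, 42 had such a window. A run of at least 7 pyrimidines on the gene strand lay in 22 of the 42 (52.4%), against 18.2% of 17491 protein-coding genes. The share was 54.2% for the large and 50% for the small subunit. The motif CCGGAAG, which ETS factors can bind, was found on either strand of the 300 bases around the start in 20 of 42 members (47.6%) and in 11.9% of protein-coding genes. The motif AANATGGC, part of a YY1 site, was found on either strand in 7 members (16.7%) and in 6.65% of protein-coding genes. The letters TATAAA on the gene strand in the 50 bases before the start were present in 1 member, Rpl22l1, and in 3.54% of protein-coding genes. These are matches of letters and annotated starts can be off by some bases, so a window without a run says nothing about the gene. In the windows shown, Rpl39 and Rpl39l had longest runs of 8 and 7 bases, Rps27 and Rps27l 9 and 9, and Rpl22 and Rpl22l1 5 and 10.

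The signal is a MAS5 value on a linear scale, and signals were compared between the arrays for the same probe set and not between genes. A floor of 100.9 was set from 85 probe sets of chemosensory receptor genes, which cartilage should not express, and lower signals were raised to it. Each gene was read from its brightest probe set. Differences are given as log2 of the columnar/hypertrophic signal over the round signal, so values above 0 are higher in columnar/hypertrophic chondrocytes. By these settings 46 of the 48 genes were above the floor, all of them on both arrays.

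**Figure D1:**
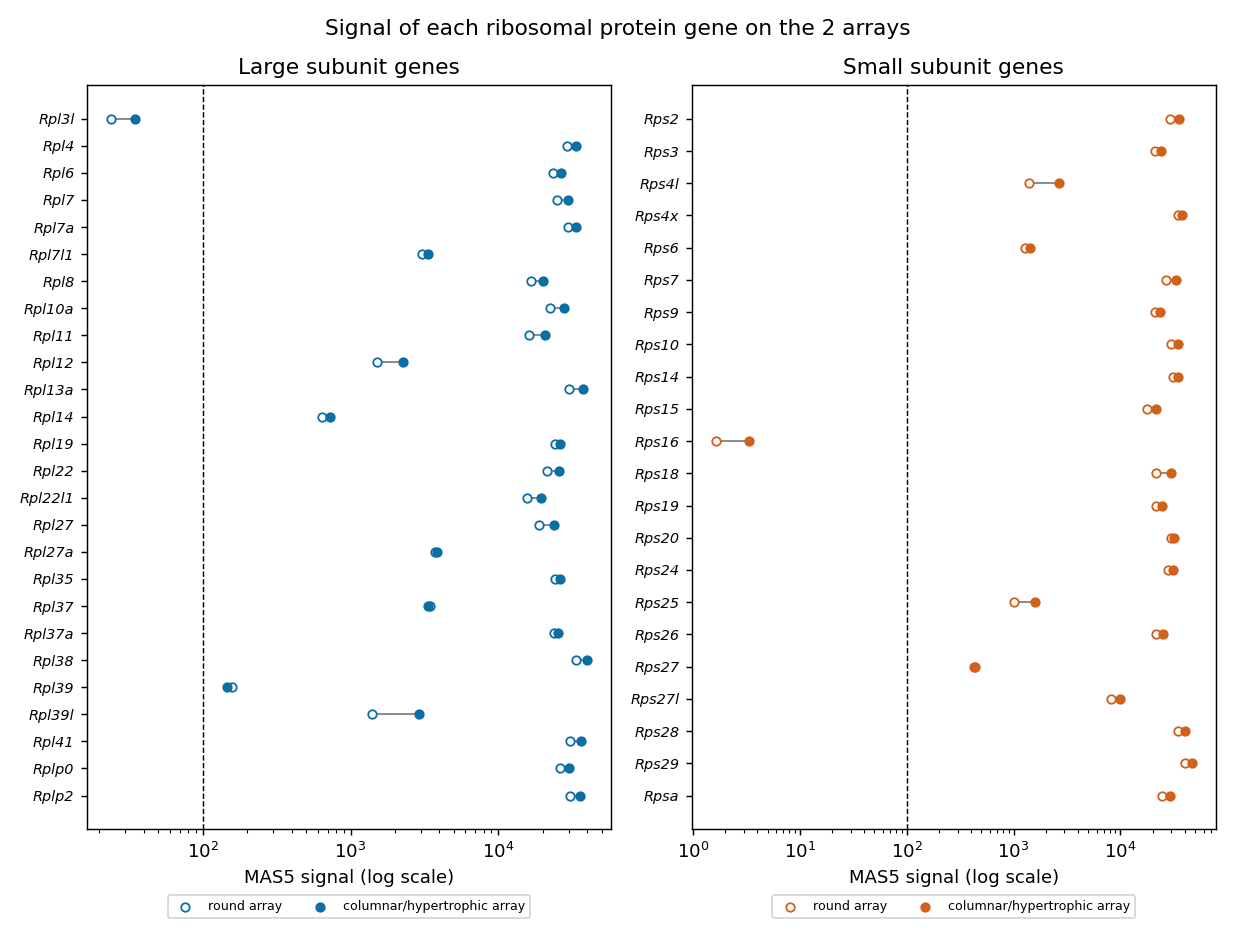
MAS5 signal (horizontal, log scale) of the brightest probe set of each ribosomal protein gene on the round array (open) and the columnar/hypertrophic array (filled), 1 array each, with large subunit genes left, small subunit genes right and the floor of 100.9 dashed. The filled point lies to the right for 43 of the 46 genes above the floor, most by a short distance, and Rpl39l and Rps4l have the longest lines.

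With the scaling as deposited, the ribosomal protein genes showed small differences that were nearly all of 1 sign, which ended with lowess centring. Of the 46 genes, 43 (93.5%) were brighter in columnar/hypertrophic chondrocytes, where 45.1% of all 11691 measured genes did. The median difference was 0.22, against -0.05 for all measured genes. The middle 50% of members lay between 0.16 and 0.30, and the middle 50% of all genes between -0.39 and 0.28. At least 2-fold higher was 1 member, Rpl39l, where 4.30% of all genes passed that size, and 0 members were at least 2-fold lower, where 6.36% of all genes were.

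That shift was shared by other genes of high signal. The 34 members with a mean signal of at least 10000 had a median of 0.22 and all lay above 0. The other 246 genes with such signals had a median of 0.23, and 77.2% of them lay above 0. The lowess curve of difference on signal, fitted over all genes, ran between 0.22 and 0.28 at these members. The fit included the members, 34 beside 246 other genes at these signals, so the curve was partly drawn through them. Relative to that curve the median of the 46 members was -0.01, with 22 above and 24 below it, and 42 members lay within 0.37 of it, the SD between probe sets of 1 gene over 4822 genes. The sign of the members' median thus depended on the scaling.

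**Figure D2:**
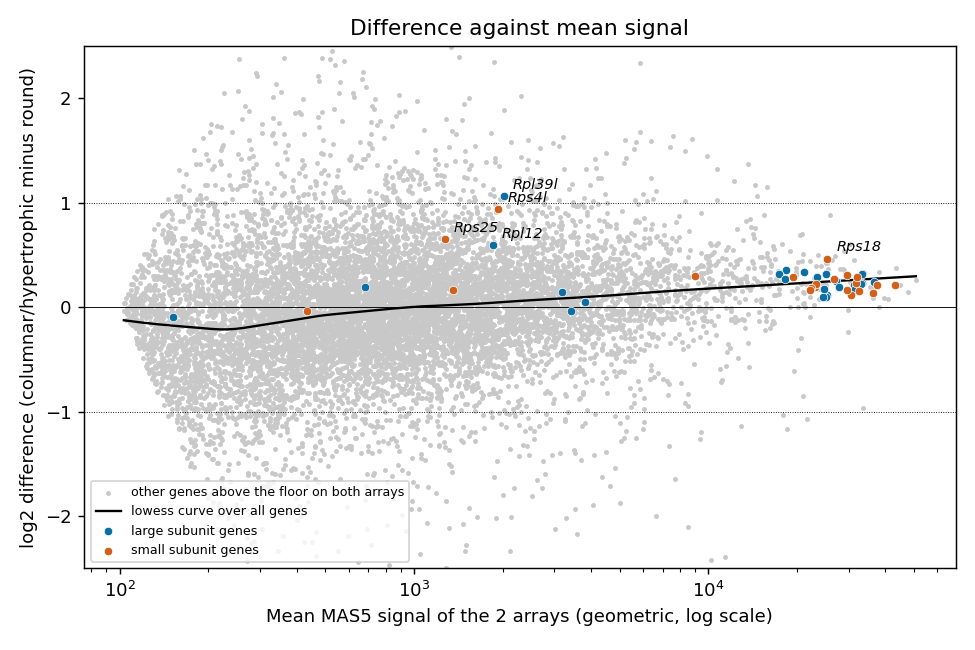
Log2 difference (vertical, columnar/hypertrophic minus round) against the geometric mean signal of both arrays (horizontal, log scale), 1 point per gene above the floor on both arrays; 77 other genes fall outside the vertical range of 2.5 either way. Ribosomal protein genes of high signal lie on the lowess curve, which is above 0 there, and the dimmer Rpl39l, Rps4l, Rps25 and Rpl12 lie above it.

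Control transcripts were read beside these values. Bacterial and phage transcripts added to both hybridisations (18 probe sets) had a median difference of 0.08, and the 7 of them above 10000 on both arrays ran from -0.02 to 0.21 with a median of 0.11. The 3 probe sets of 18S ribosomal RNA differed by 0.13 to 0.27. Transcripts added to the RNA before labelling (24 probe sets) had a median of -0.15 and ran from -0.90 to 0.28. The ratio of 3′ to 5′ signal was 1.41 on the round and 1.38 on the columnar/hypertrophic array for Actb, and 0.667 and 0.708 for Gapdh. The part of any of these in the ribosomal protein values was not tested.

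The subunits had nearly the same medians. The 25 large subunit genes had a median of 0.22 and ranged from -0.10 to 1.06. The 21 small subunit genes had a median of 0.21 and ranged from -0.03 to 0.94. The medians differed by 0.01, and 23 large and 20 small subunit genes lay above 0, where 45.1% of all measured genes did. Relative to the lowess curve, 12 large and 10 small subunit genes lay above 0. Under 12 alternatives of scaling, floor, probe set and membership the difference of medians (large minus small) ran from -0.02 to 0.04.

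Among the large subunit genes of the stalk, the flexible arm that recruits translation factors, Rplp0 had signals of 26098 and 29891 on the round and columnar/hypertrophic arrays. Rplp2 had 30737 and 35836. The differences were 0.20 and 0.22, and both were slightly below the lowess curve (-0.06 and -0.04). Rpl12, which forms the base of the stalk, had 1505 and 2274, 1.51-fold higher in columnar/hypertrophic chondrocytes, from a single dim probe set.

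Rpl11 binds 5S ribosomal RNA together with the protein of Rpl5 and restrains the p53 ubiquitin ligase MDM2 when ribosome assembly fails. It had signals of 16216 and 20765, a difference of 0.36 (0.14 relative to the lowess curve). Rpl38, whose loss in mice alters the patterning of the vertebral column through translation of Hox messages, had 33598 and 39790, a difference of 0.24 (-0.03 relative to the curve). The other genes listed as skeletal (Rpl10, Rpl13 and Rpl24) had no probe set of their own.

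Diamond-Blackfan anaemia is caused by the loss of 1 copy of a ribosomal protein gene and can include limb and facial defects. Of 19 genes listed for it, 11 were measured. All 11 were within 2-fold, as were 89.3% of all measured genes, with a median of 0.21 and a range from -0.03 for Rps27 to 0.36 for Rpl11.

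The members with the largest differences were dim ones and 2 of them were gene copies. Rpl39l, a retrotransposed copy of Rpl39 best known from male germ cells, had signals of 1400 on the round and 2920 on the columnar/hypertrophic array, 2.09-fold higher. Rps4l, the transcribed copy of Rps4x on chromosome 6, had 1399 and 2681, 1.92-fold higher. Both lay well above the lowess curve, by 1.01 and 0.89. Each had 1 probe set, so no second reading of the same gene was available, and transcripts of a copy and its parent cannot always be separated by array probes.

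Of the parents of these copies, Rps4x did not show such a difference, and Rpl39 was too dim to tell. Rps4x, an X-linked small subunit gene, had signals of 34552 and 38025, a difference of 0.14, or 0.80 less than Rps4l. Rpl39 had 157 and 147, a difference of -0.10 close to the floor, which leaves its level poorly measured here. Across the 5 paralog genes above the floor the median was 0.32, against 0.21 for the 41 other members.

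The other paralogs were nearer to the rest. Rpl22l1, a close relative of Rpl22 that can stand in for it in the ribosome, had 15529 and 19390, and Rpl22 had 21228 and 25968. Their differences were 0.32 and 0.29, and 0.10 and 0.05 relative to the lowess curve. The other probe sets of Rpl22 gave 0.25 and -0.17. Rps27l, a p53-induced relative of Rps27, had 8118 and 9992, a difference of 0.30, with its other probe sets at 0.46 and 0.42. Rps27 had 437 and 426, a difference of -0.03 from a dim probe set. Rpl7l1, a relative of Rpl7 that takes part in assembly of the large subunit, had 3024 and 3346 (0.15), and Rpl7 had 24948 and 29609 (0.25). Their other probe sets gave 0.15 and 0.48 for Rpl7l1, and 0.23 and 0.20 for Rpl7. Rpl3l, the copy of Rpl3 made in striated muscle, had signals of 23.9 and 34.9, both under the floor, and gave no difference.

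Rps25, a small subunit protein used by some viral internal ribosome entry sites, had signals of 1017 and 1596, 1.57-fold higher on the columnar/hypertrophic array. That value came from 1 dim probe set, as did that of Rpl12. In other members, dim probe sets stood apart from bright ones either way, at 0.64 in Rps24 and Rps9 and -0.73 in Rpl35. Whether this bears on Rps25 and Rpl12 was not tested. Rps18, at the head of the small subunit, had 21652 and 29880, a difference of 0.46, and the other 3 of its measured probe sets gave 0.22 to 0.32. At the low end were Rpl39 and the small subunit gene Rps27, described above with their paralogs, and 4 other large subunit genes: Rpl37 (3451 and 3366, -0.04), Rpl27a (3754 and 3874, 0.05), Rpl35 (24319 and 26055, 0.10) and Rpl37a (23709 and 25420, 0.10), of which the last 3 lay below 0 with lowess centring and quantile normalization, while Rpl39 and Rps27 lay above 0 with both. Rps16 was under the floor by its only probe set (1.64 and 3.34), so no difference could be given for it.

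**Figure D3:**
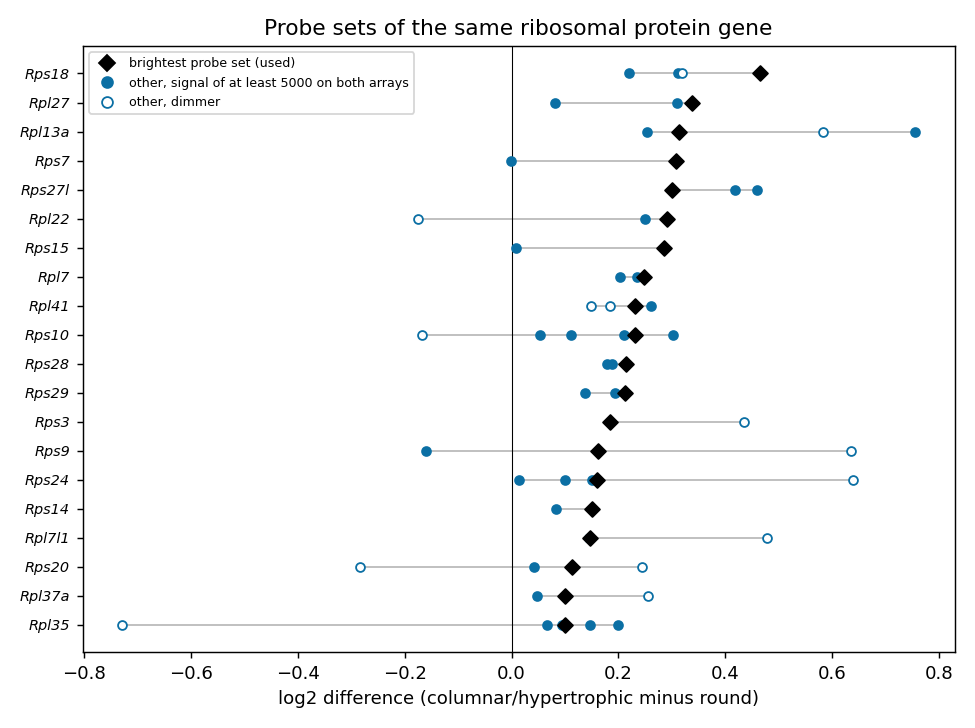
Log2 difference (horizontal, columnar/hypertrophic minus round) of every probe set measured on both arrays for the 20 ribosomal protein genes with several, 1 row per gene ordered by the brightest probe set (diamonds). The farthest points of Rpl35, Rps9 and Rps24 are probe sets under a signal of 5000 (open), while brighter ones (filled) also stand apart in Rpl13a, Rps7, Rps15 and Rps9.

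Probe sets of the same member gave a measure of technical error. Several probe sets were measured on both arrays for 20 of the 46 genes, and in 14 of these they all had the same sign. The pooled SD of differences within a gene was 0.21. Rpl35 showed the widest spread: its 5 bright probe sets gave 0.07 to 0.20, and a dim one with signals of 173 and 104 gave -0.73. Rps9 had 0.16 by its brightest probe set, -0.16 by the next (7944 and 7110) and 0.64 by the dimmest (377 and 586). Rps24 had 0.01 to 0.16 by 4 bright probe sets and 0.64 by a dim one (1534 and 2389). Rps20 had 0.11 and 0.04 by its bright probe sets, and 0.24 and -0.28 by its dim ones. The brightest probe sets of Rps4x, Rps9, Rps20 and Rps24 lay below 0 with lowess centring and quantile normalization.

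Probe sets that name a member-type gene together with pseudogenes or other genes were read as a group only. Of these 102 were above the floor throughout, with a median of 0.22 and the middle 50% between 0.08 and 0.29. They ran from -0.69 to 0.59, and 0 were at least 2-fold either way, where 10.7% of all measured genes were. Of ribosomal proteins outside the name rule, Rps3a1 had signals of 34695 and 40338 (0.22), and Fau, whose product is cut into a small subunit protein and a ubiquitin-like part, 20869 and 21379 (0.03).

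Genes of ribosome assembly, whose products process ribosomal RNA and join it to the proteins, were read beside the members. Of 61 measured genes of ribosome assembly, 10 were higher by 2-fold or more in columnar/hypertrophic chondrocytes (4.30% of all genes) and 0 lower, and the median was 0.49 (0.48 relative to the lowess curve). Fbl, the methyltransferase of box C/D small nucleolar particles, had signals of 2742 and 6476, 2.36-fold higher. Nhp2, a protein of the box H/ACA particles, had 1616 and 3816, also 2.36-fold higher. Rrp9 and Rrp12, needed for processing of small subunit precursors, were 3.68-fold and 2.50-fold higher from round signals close to the floor (143 and 130).

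The lists of RNA polymerase I, initiation, elongation and termination, TOR and MYC control, and other TOP messages had medians from 0.07 to 0.41. RNA polymerase I genes, which transcribe ribosomal RNA, had a median of 0.16, and 19 of 19 were within 2-fold (89.3% of all genes). The largest differences were Polr1e (0.96), Polr1b (0.83), the initiation factor gene Rrn3 (0.80) and Taf1c (0.79). Polr1e and Taf1c had round signals close to the floor (149 and 173). Initiation factor genes had a median of 0.35, with 1 of 36 at least 2-fold higher (4.30% of all genes), Eif2b3 (2.01-fold), followed by the cap-binding protein gene Eif4e (0.91), Eif3b (0.90) and Eif2s2 (0.90). The list of elongation, termination and ribosome rescue genes had a median of 0.41, with 2 of 14 at least 2-fold higher (4.30% of all genes). These were the rescue factor gene Pelo (2.31-fold) and Eef1e1 (2.61-fold). Despite its symbol, Eef1e1 encodes a protein of the tRNA synthetase complex and is not an elongation factor gene. Etf1, the termination factor gene, differed by 0.73, though its 5 probe sets ran from -0.39 to 0.97, and Eif5a by 0.70.

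Genes that control ribosome production through TOR or MYC had a median of 0.07, with 3 of 24 at least 2-fold higher (4.30% of all genes) and 1 lower (6.36% of all genes). Myc, the transcription factor gene that drives ribosome synthesis, had signals of 975 and 2494, 2.56-fold higher on the columnar/hypertrophic array. Eif4ebp1, encoding a translation repressor inhibited by TOR, was 2.03-fold higher, with other probe sets from 0.01. Sesn2, a stress-induced inhibitor of TOR, was 2.55-fold higher, but -0.69 by another probe set. Mycn, named after its value was seen, went from 203 to below the floor, at least 2.01-fold lower. Larp4 differed by 0.62. The other TOP messages had a median of 0.16, close to the ribosomal proteins, and 1 of 17 was at least 2-fold higher, the intermediate filament gene Vim (2.72-fold). Nap1l1 (0.44), Pabpc1 (0.39) and the elongation factor gene Eef2 (0.39) followed.

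**Figure D4:**
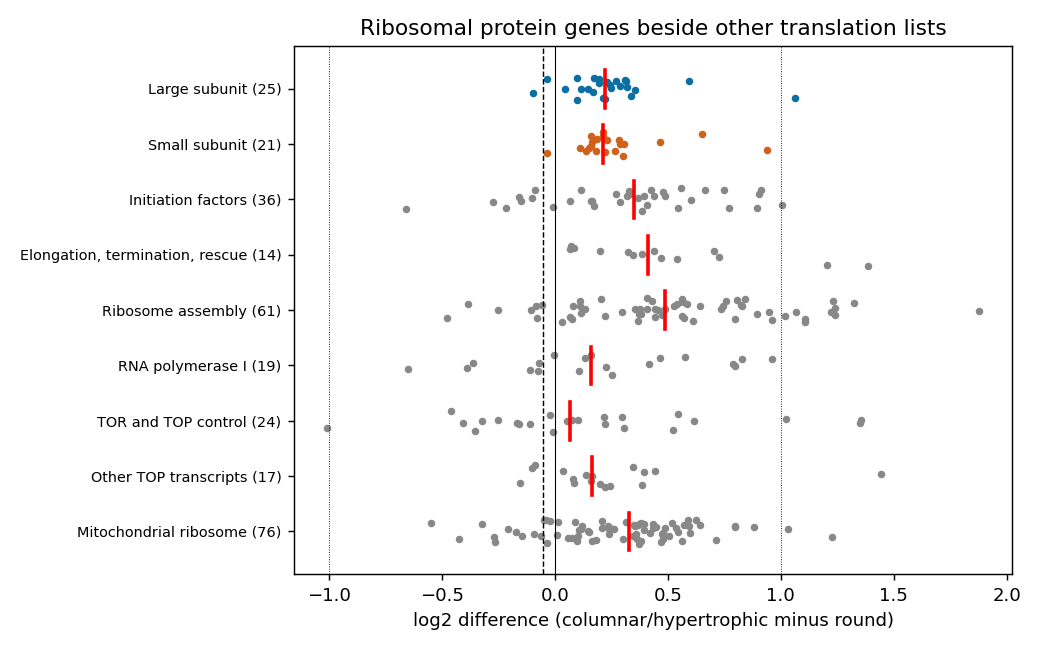
Log2 difference (horizontal, columnar/hypertrophic minus round) of the measured members of the 2 subunit lists and 7 other translation lists, each gene a point and list sizes in brackets, red bars for medians, the dashed line for the median of all measured genes (-0.05) and dotted lines at 2-fold. The middle 50% of the subunit lists is the narrowest, around medians of 0.22 and 0.21, while ribosome assembly genes spread up to 1.88 with a median of 0.49.

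Mitochondrial ribosomal protein genes, which serve the separate ribosomes of mitochondria, had a median of 0.33 over 76 genes, proteasome subunit genes 0.41 over 36 and cytosolic tRNA synthetase genes 0.50 over 19. Relative to the lowess curve these were 0.30, 0.32 and 0.47, against -0.01 for the cytosolic ribosomal proteins. With 1 array a group, no difference between lists could be tested.

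**Figure D5:**
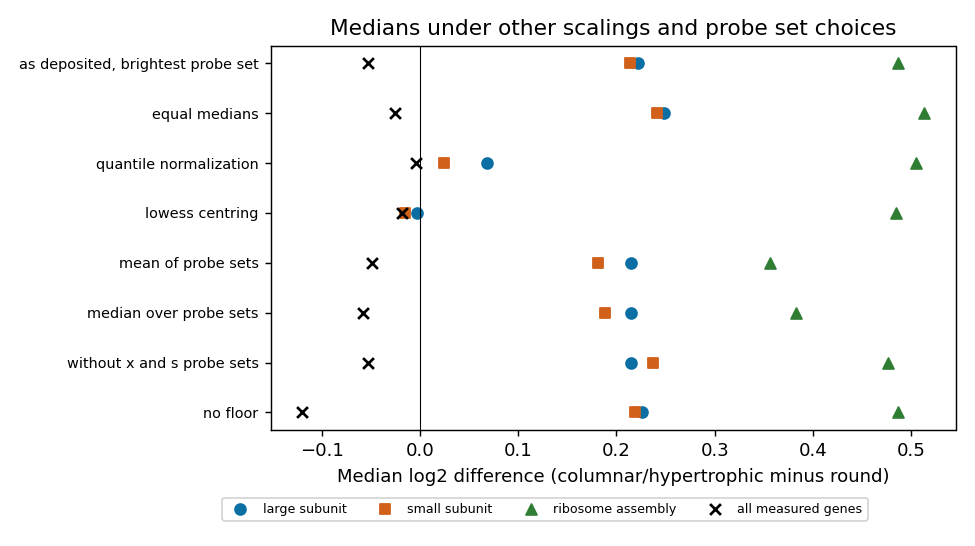
Median log2 difference (horizontal, columnar/hypertrophic minus round) of large subunit, small subunit, ribosome assembly and all measured genes under 8 settings of scaling, floor and probe set choice (vertical). Both subunits move to near 0 with quantile normalization (0.07 and 0.02) and lowess centring (-0.003 and -0.01), while ribosome assembly stays between 0.36 and 0.51.

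The labels were checked against markers. All 6 chondrocyte markers were measured in both groups. The summed signal of prehypertrophic and hypertrophic markers was 1631 on the round and 37370 on the columnar/hypertrophic array, with Mmp13 under the floor on both. Markers of round and periarticular cells summed to 24654 and 1639. Markers of perichondrium, fibroblasts and tendon summed to 54207 and 10549. Of 8 such markers, 6 were above the floor on the round and 5 on the columnar/hypertrophic array. Red blood cell (0 of 3 measured) and endothelial (0 of 4) markers were under the floor on both arrays. Osteoblast markers summed to 221 and 2029 with 1 of 3 above the floor, Sp7 (170 and 1940), and with Dmp1 and Phex under it on both arrays. Macrophage and osteoclast markers summed to 1226 and 754 (3 and 2 of 6 above it), and muscle markers to 378 and 641 (2 and 1 of 6). Of the muscle markers above the floor, Tnnt3 was higher on the columnar/hypertrophic array (63.4 and 429), while Acta1 (122 and 88.4) and Ckm (103 and 18.1) were lower. The part of these other cells in the ribosomal protein values was not tested, and in mixed tissue fewer cells of a type and less RNA per cell cannot be told apart.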

How the data were processed

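Total RNA of cartilage portions was mixed, transcribed to biotin-labelled cRNA and hybridised to 2 arrays, 1 per group. The authors deposited MAS5 intensities on a linear scale for 45101 probe sets; its version is not given in the sources used here. This method brings arrays to 1 trimmed mean, and the mean without the lowest and highest 2% of signals was 500.0 on both. The study's methods name RMA, whose values are on a log scale, but the deposited intensities were linear. MAS5 signals of dim probe sets are noisy, and bright ones may be compressed.

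Names came from the platform annotation, updated with RefSeq tables (GRCm38.p6). The 64 control probe sets and those with several symbols were kept apart. The floor was the 95th percentile of chemosensory receptor signals. On the round array 54.9% of probe sets lay above it, and on the other 50.7%. Medians and counts at 2-fold were computed with Python 3.11.15, pandas 2.3.3 and statsmodels 0.14.6 (lowess span 0.3), and the steps were tested on simulated data. Members and gene lists were chosen with earlier results of these data known. Named members were the 6 highest and 6 lowest differences, all under the floor, paralogs with their partners, the stalk, 5S and skeletal lists and the 4 widest probe set spreads; of other lists, up to 4 genes with the largest differences. Lists were described by counts and medians, without a test. Results were recomputed under 9 other settings (scaling, floor, probe set choice), and 3 more were added after seeing the data.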

Additional observations from a re-analysis of the deposited data

How the results depend on the processing

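The size of the ribosomal protein difference depended on the scaling. Quantile normalization lowered the median of members from 0.22 to 0.0467 (large subunit 0.0684, small subunit 0.0246), and lowess centring to -0.0087 (large -0.0028, small -0.0146). The other TOP messages moved from 0.16 to -0.003 and -0.0215 under these. Initiation factors had 0.25 with lowess centring and 0.14 with the mean of probe sets. That mean gave 0.36 for ribosome assembly and 0.19 for mitochondrial ribosomal proteins, and the median over probe sets gave 0.38 for ribosome assembly. Members at least 2-fold higher numbered 2 without a floor, Rpl39l and Rps16, the latter at signals near 0. They numbered 0 among members with a mean signal of at least 10000 and 0 without the paralogs, since both leave out Rpl39l. Over all genes, 1644 were higher and 3046 lower without a floor (503 and 743 with it), and 487 were lower with the mean of probe sets. The other 143 recomputed list medians and counts moved by less than 0.1 (log2) or 1.5 times. Rpl39l stayed between 1.01 and 1.09, Rps4l between 0.89 and 0.97, Rps25 between 0.63 and 0.68 and Rpl12 between 0.55 and 0.62 under 3 other scalings, the settings that could move genes with 1 probe set far above the floor, while 13 named members, including Rpl38, Rplp0 and Rps27, changed sign in at least 1 of the 9 settings. With cross-matching probe sets (x and s types) removed, Rps24 and Rps9 gave 0.64 from dim probe sets. No paired analysis was possible because each group was 1 array. Signal over background limits the dim members, and 2 arrays give no replicate error.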
